A study of Homo sapiens with 18 samples.

Results

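The 10 genes described are members of the BCL2 family and an inhibitor of apoptosis protein, taken by symbol from a table of 40266 gene symbols measured in the pancreatic ductal adenocarcinoma (PDAC) cell lines Panc1 and Panc89. They are the anti-apoptotic genes BCL2, BCL2L1, MCL1 and BCL2A1, the effectors BAX and BAK1, the BH3-only genes BCL2L11, PMAIP1 and BBC3, and BIRC3. RNA was sequenced in 18 libraries, with 3 biological replicates, described as 3 passages, in each of 6 groups: parental Panc1, Panc1 Holoclone, Panc1 Paraclone, parental Panc89, Panc89 Holoclone and Panc89 Paraclone cells. Panc1 came from a primary tumor and served as the mesenchymal model, and Panc89 came from a lymph node metastasis and served as the epithelial model. Holoclone and Paraclone cells, named after compact and scattered colony shapes, were each grown from 1 clone of their line, so a difference between clone types cannot be told apart from a difference between these individual clones. Neither a genetic change nor a drug treatment is given for any group. Values are TPM, transcript abundances adjusted for transcript length and library total, or their log2(TPM + 1). The p-values measure the spread between passages of the same cells.

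Cells die by the mitochondrial route of apoptosis when BAX and BAK1 form pores in the outer mitochondrial membrane and release cytochrome c, which activates caspases. Anti-apoptotic BCL2 proteins hold these effectors and their activators in check, and BH3-only proteins bind and neutralize the anti-apoptotic proteins, each with its own preferences among them. Inhibitor of apoptosis proteins act elsewhere: BIRC3, also called cIAP2, is a ubiquitin ligase of the TNF receptor complexes, whose output it steers toward NF-kB signaling. In pancreatic cancer BCL2L1, encoding BCL-xL, and MCL1 are well known as survival factors.

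Of the 10 genes, 9 reached 1 TPM in at least 3 libraries and were tested with limma-trend among 16093 genes. BCL2 reached it in 2 libraries and was not tested. BCL2A1 passed this filter through the Panc1 libraries alone, so it had to differ between the lines. Between 12932 and 14199 genes per library reached 1 TPM, and depth is unknown because TPM keep no read counts. The lines behaved as labelled: the mesenchymal marker VIM had group means of 2465 to 4318 TPM in Panc1 and at most 0.361 TPM in Panc89, and the epithelial marker CDH1 had 0.990 to 2.84 TPM in Panc1 and 75.3 to 98.0 TPM in Panc89. NES, a stem cell marker of Panc1, averaged 123 TPM in parental, 27.8 in Holoclone and 5.40 in Paraclone cells, and SOX2 averaged 38.0 TPM in Panc89 Holoclone cells and 0.714 in Panc89 Paraclone cells. L1CAM averaged 2.22 TPM in Holoclone and 51.2 TPM in Paraclone cells of Panc89. The median log2 fold change of all tested genes was 0.19 for Panc1 Holoclone against Paraclone cells, and among the genes called there 73.3% were higher in Holoclone cells, a share that became 50.2% after upper quartile and 46.8% after median-of-ratios scaling of the TPM. For parental Panc89 against parental Panc1 this median was −0.18 and the share 41.6%, with 49.6% and 51.6% after these scalings. For Panc1 Paraclone against parental Panc1 cells the median was −0.17 and the share 25.6%, with 47.2% and 55.2%.

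**Figure D1:**
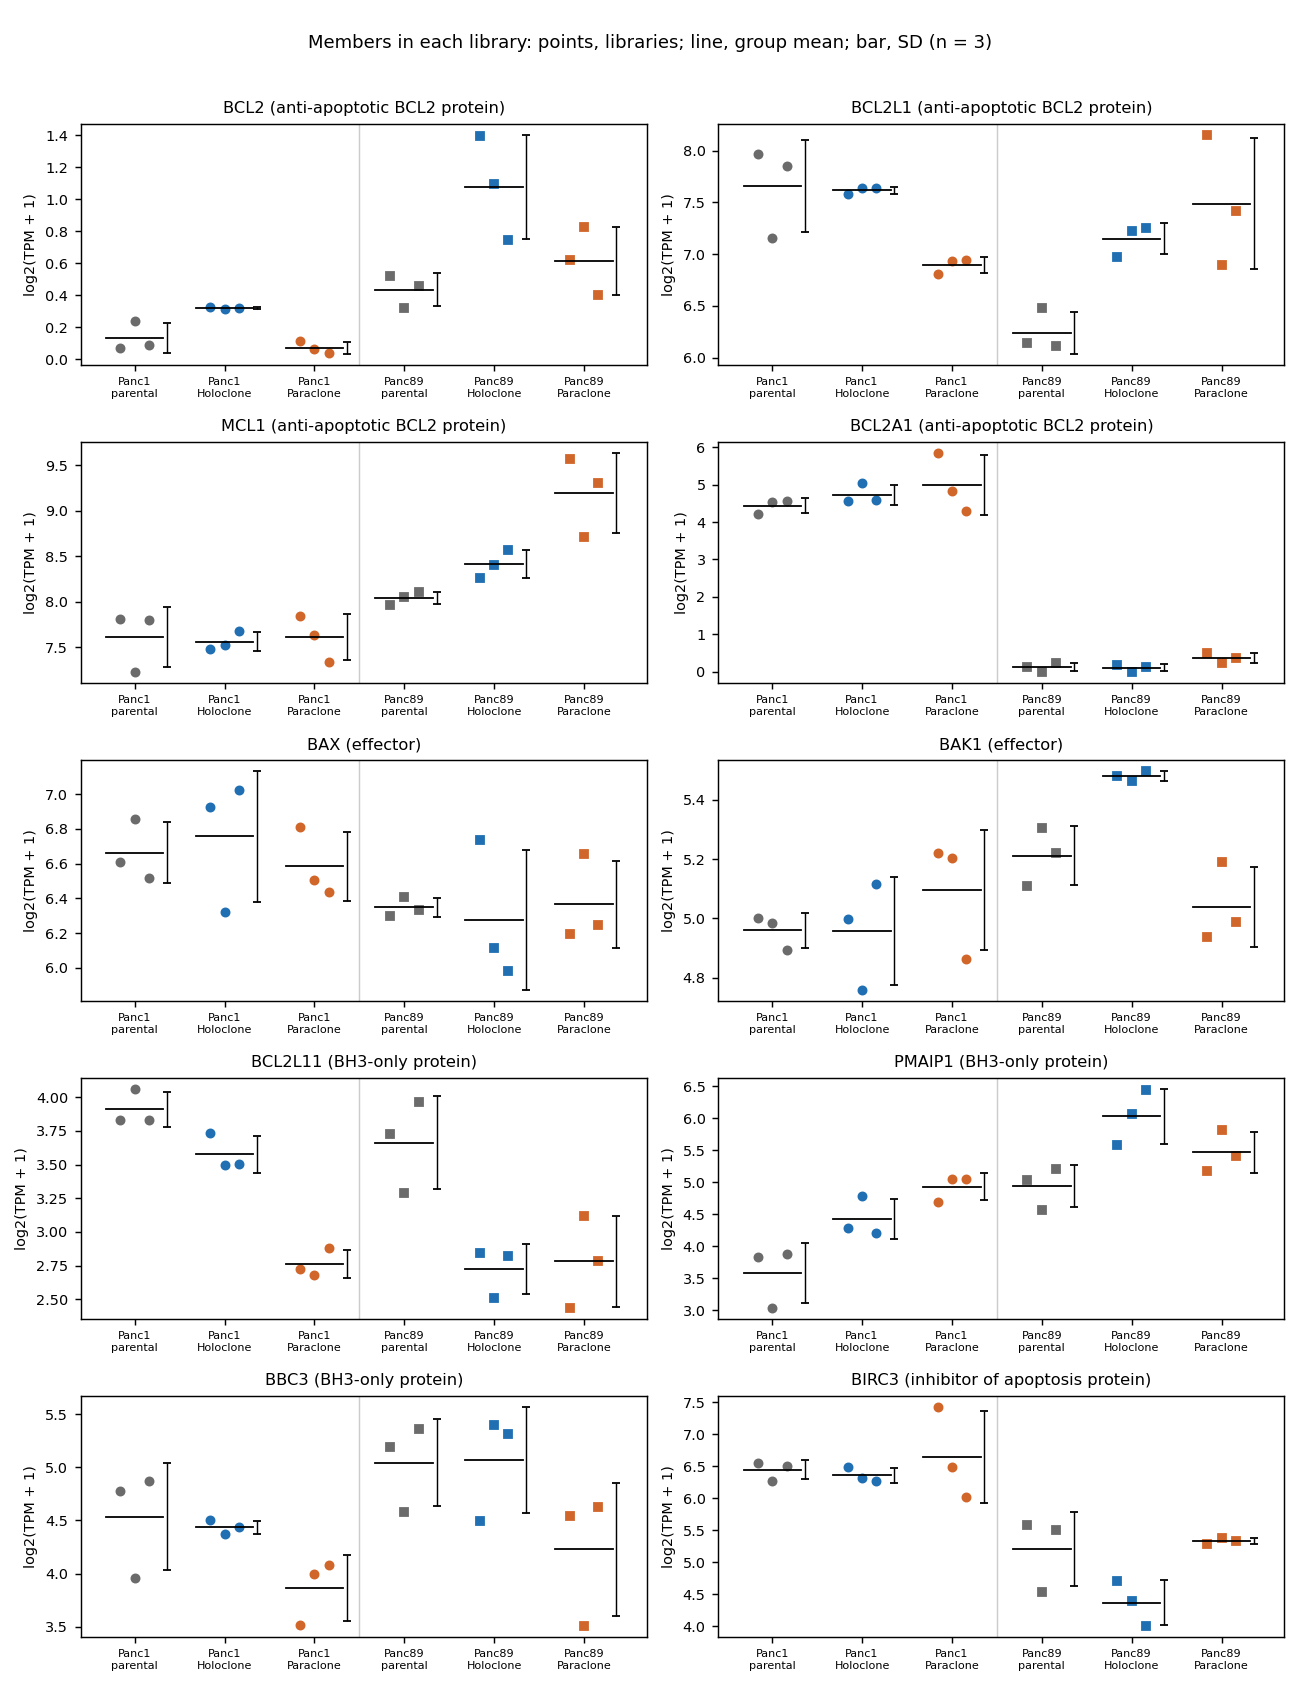
Log2(TPM + 1) of each of the 10 genes (vertical axes, 1 panel per gene and with their own ranges) in the 3 libraries of each group (horizontal axes). Points are libraries, lines are group means and bars are SDs (n = 3). BCL2A1 is at 17.5 TPM or more in every Panc1 library and at 0.420 TPM or less in every Panc89 library, whereas for BAX each group overlaps with its neighbours in the order of group means.

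MCL1 and BCL2L1 had the highest TPM of the 4 anti-apoptotic genes in every library. MCL1 (chromosome 1, 150560895 to 150579738, minus strand, GRCh38) encodes a short-lived protein that restrains BAK1 in particular. In Panc1 its TPM were 224, 149 and 222 in parental, 177, 184 and 204 in Holoclone, and 229, 198 and 161 in Paraclone cells. In Panc89 they were 248, 265 and 274 in parental, 307, 338 and 378 in Holoclone, and 757, 417 and 633 in Paraclone cells. Thus, the libraries of the 3 Panc89 groups did not overlap with each other in the order parental, Holoclone, Paraclone, and all of them lay above those of Panc1, whose 3 groups overlapped. MCL1 was higher in Panc89 than in Panc1 among Holoclone cells by 0.85 ± 0.20 on the log2 scale (± SE, adjusted p = 0.00144) and among Paraclone cells by 1.59 ± 0.20 (adjusted p = 4.44e-06). In bulk libraries like these, fewer cells with a transcript and less of it per cell cannot be told apart. Between the parental cells the log2 difference was 0.43, with an adjusted p of 0.0719, and it passed the threshold after upper quartile scaling at 0.62 and after median-of-ratios scaling at 0.67. Within Panc89, MCL1 was lower in Holoclone than in Paraclone cells by a log2 fold change of −0.78 ± 0.20 (adjusted p = 0.00616), a call lost in a fit of these 2 groups alone at an adjusted p of 0.07. Panc89 Paraclone cells also exceeded the parental cells by 1.15 ± 0.20 (adjusted p = 0.000693).

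BCL2L1 (chromosome 20, 31664452 to 31723989, minus strand) gives BCL-xL, which guards against BAX and BAK1, and by alternative splicing the pro-apoptotic BCL-xS. The table sums transcripts per gene, so the proportions of these forms are not known here. Its TPM in Panc1 were 249, 141 and 230 in parental, 190, 198 and 198 in Holoclone, and 111, 121 and 122 in Paraclone cells. For Panc89 the values were 69.6, 88.0 and 68.0 in parental, 125, 149 and 151 in Holoclone, and 283, 118 and 170 in Paraclone cells. Parental cells of the lines therefore stood at opposite ends of the order of group means, with 207 TPM in Panc1 and 75.2 TPM in Panc89. Panc1 Holoclone and Panc89 Paraclone cells followed parental Panc1 with overlapping libraries. Panc89 Holoclone and Panc1 Paraclone cells came next, and the latter overlapped with neither neighbour. Between the parental cells BCL2L1 was lower in Panc89 with a difference of −1.42 ± 0.25 on the log2 scale (± SE, adjusted p = 0.000121). Both Panc89 clones were above their parental cells, Holoclone cells by 0.91 ± 0.25 (adjusted p = 0.0143) and Paraclone cells by 1.25 ± 0.25 (adjusted p = 0.00216). The first of these calls was lost with median-of-ratios scaling (0.81, adjusted p = 0.0514) or without parental Panc89 replicate 1 (adjusted p = 0.0516) or replicate 3 (adjusted p = 0.0555). The second was lost in a fit of the 2 groups alone (adjusted p = 0.0623). In Panc1, BCL2L1 was higher in Holoclone than in Paraclone cells by 0.72 ± 0.25 (adjusted p = 0.0322), and lower in Paraclone than in parental cells with a difference of −0.76 ± 0.25 (adjusted p = 0.0318). Both Panc1 calls were near the threshold, and each was lost after either scaling: the former became 0.47 (adjusted p = 0.221) and 0.44 (adjusted p = 0.274), and the latter −0.58 (adjusted p = 0.148) and −0.52 (adjusted p = 0.219). The call of Holoclone against Paraclone was also lost without any 1 of the 6 libraries, with adjusted p between 0.0616 and 0.0811. That of Paraclone against parental cells was lost in a fit of the 2 groups alone (adjusted p = 0.0649), without parental Panc1 replicate 1 (adjusted p = 0.135) or 3 (adjusted p = 0.107), and without any 1 Paraclone library (adjusted p between 0.0631 and 0.0793).

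Because the TPM ratio of a pair of genes in a library does not depend on how the library is scaled, the MCL1 to BCL2L1 ratio was also read in each library. It was 0.898, 1.06 and 0.964 in parental Panc1, 0.934, 0.928 and 1.03 in Panc1 Holoclone, and 2.07, 1.64 and 1.32 in Panc1 Paraclone cells. In Panc89 it was 3.57, 3.01 and 4.03 in parental, 2.45, 2.27 and 2.50 in Holoclone, and 2.67, 3.54 and 3.72 in Paraclone cells. Every Panc89 library thus lay above every Panc1 library, and within each line the Paraclone libraries lay above the Holoclone libraries. This ratio was chosen after its values were seen and is given without a test. Of the summed TPM of the 4 anti-apoptotic genes, MCL1 made up 45.9% ± 1.8 (SD, n = 3) in Panc1 Holoclone and 77.7% ± 2.5 in parental Panc89 cells. The sum itself ranged from 302 to 490 TPM across the Panc1 libraries. In Panc89 it was 319 to 353 TPM in parental, 433 to 530 in Holoclone and 535 to 1042 in Paraclone cells.

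**Figure D2:**
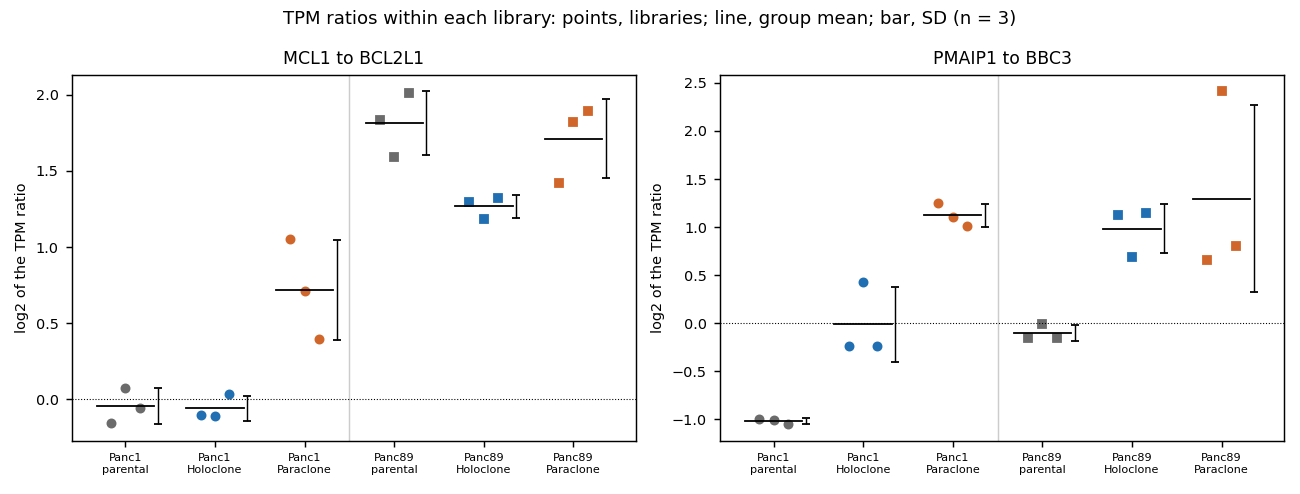
Log2 of the MCL1 to BCL2L1 and of the PMAIP1 to BBC3 TPM ratio (vertical axes) in each library by group (horizontal axes), with points for libraries, lines for group means and bars for SDs (n = 3). The dotted line marks equal TPM. The MCL1 to BCL2L1 ratio is 2.27 or more in all Panc89 libraries and 2.07 or less in all Panc1 libraries, and PMAIP1 to BBC3 is lowest in parental Panc1 cells (0.484 to 0.501).

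BCL2A1 (chromosome 15, 79960892 to 79971196, minus strand) encodes BFL-1 and is a target of NF-kB that is best known from leukocytes and melanoma. Its TPM were 17.5, 22.3 and 22.5 in parental Panc1, 22.5, 31.9 and 23.3 in Panc1 Holoclone, and 56.7, 27.5 and 18.6 in Panc1 Paraclone cells. Panc89 libraries had between 0 and 0.420 TPM, and 1 parental and 1 Holoclone library were listed at 0. The log2 fold changes of Panc89 against Panc1 were −4.31 ± 0.28 (SE) in parental, −4.63 ± 0.28 in Holoclone and −4.62 ± 0.28 in Paraclone cells. They are a description with no test, because the filter on low values fixed this difference, and they understate it because 1 TPM was added. Within a line BCL2A1 passed the threshold in no comparison. Of the 5 leukocyte markers PTPRC, CD3E, MS4A1, CD14 and ITGAM, MS4A1 was listed at 0 in every library, and their summed level was 0.715 to 2.51 TPM in Panc1 and 0.523 to 6.06 TPM in Panc89 libraries. Of the 2 tested leukocyte markers, 1 was higher and 0 were lower in parental Panc89 than in parental Panc1 cells, beside 66.0% of all genes called. The higher marker was CD14, by 1.83 on the log2 scale. Between the Holoclone cells 0 of the 2 were higher and 1 was lower in Panc89, beside 65.8% of all genes called. Between the Paraclone cells 1 was higher and 1 lower, beside 60.7% of all genes called. The summed level was 1.73 to 2.51 TPM in Panc1 Holoclone and 0.523 to 0.829 TPM in Panc89 Holoclone libraries.

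BCL2 itself (chromosome 18, 63123346 to 63320128, minus strand), the founding member of the family, was close to the lower end of the scale. It had 1.62, 1.13 and 0.673 TPM in Panc89 Holoclone cells, 0.319 to 0.771 in Panc89 Paraclone, 0.250 to 0.437 in parental Panc89 and 0.0290 to 0.256 in Panc1 libraries. In a fit without the filter on low values, BCL2 was higher in Panc89 than in Panc1 Holoclone cells by a log2 fold change of 0.75 (adjusted p = 0.000294). The same held among Paraclone cells (0.54, adjusted p = 0.00452), while the parental difference of 0.30 had an adjusted p of 0.0901. By the same fit it was higher in Panc89 Holoclone cells than in Panc89 Paraclone cells (0.46, adjusted p = 0.0218) and in parental Panc89 cells (0.64, adjusted p = 0.00416). That fit called 41.3% of all genes between the Holoclone, 36.3% between the Paraclone and 40.7% between the parental cells of the lines. For Panc89 Holoclone cells it called 21.7% against Paraclone and 14.8% against parental cells. Of the further anti-apoptotic relatives BCL2L2 and BCL2L10, BCL2L2 (BCL-w) was tested, with group means of 19.2 to 26.7 TPM. BCL2L2 was higher in Panc89 Holoclone than in Paraclone cells by 0.42 (adjusted p = 0.00207). Reads of BCL2L2 can be shared with its read-through transcript into PABPN1, so its level is uncertain.

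BAX (chromosome 19, 48954815 to 48961798, plus strand), a pore-forming effector, ranged from 79.1 to 129 TPM in Panc1 and from 62.1 to 105 TPM in Panc89 libraries, and each group overlapped with its neighbours in the order of means. The parental groups did not overlap, with 90.7 to 115 TPM in Panc1 and 77.8 to 83.9 TPM in Panc89. BAX passed the threshold in none of the 10 comparisons. Its 95% confidence intervals were wide enough to hold moderate differences, for example −0.92 to −0.04 for Panc89 against Panc1 Holoclone cells (log2 fold change −0.48, adjusted p = 0.0525). That difference passed the threshold with a filter of 5 TPM (adjusted p = 0.0497), without Panc1 Holoclone replicate 2 (−0.70, adjusted p = 0.00781) and without Panc89 Holoclone replicate 1 (−0.71, adjusted p = 0.00528). The parental difference of −0.32 passed it in a fit of these 2 groups alone (adjusted p = 0.0338), beside an adjusted p of 0.194 in the fit of all 6 groups. BAK1 (chromosome 6, 33572547 to 33580293, minus strand), the effector bound by MCL1 and BCL-xL, was highest in Panc89 Holoclone cells with 43.7, 43.2 and 44.2 TPM, above the 26.1 to 38.6 TPM of all other libraries. BAK1 was higher there than in Panc1 Holoclone cells by 0.52 ± 0.12 on the log2 scale (± SE, adjusted p = 0.00116) and than in Panc89 Paraclone cells by 0.44 ± 0.12 (adjusted p = 0.00878). The latter call was lost with median-of-ratios scaling (0.31, adjusted p = 0.0553). In Panc1 the log2 difference between Holoclone and Paraclone cells was −0.14 (adjusted p = 0.407), and the difference between the changes of the lines, 0.58 ± 0.17, passed the threshold (adjusted p = 0.0144). BAX made up 71.5% to 79.5% of the summed effector TPM in Panc1 libraries and 58.4% to 73.7% in Panc89 libraries.

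Among the BH3-only genes, PMAIP1 rose in 2 and BCL2L11 fell in 3 of the 4 clones against their parental cells, in both lines, whereas BBC3 passed no threshold. BCL2L11 (chromosome 2, 111119378 to 111168444, plus strand) encodes BIM, which binds all anti-apoptotic family members and can activate BAX and BAK1 directly. Its TPM were 13.2, 15.7 and 13.2 in parental Panc1, 12.3, 10.3 and 10.3 in Panc1 Holoclone, and 5.62, 5.42 and 6.35 in Panc1 Paraclone cells. In Panc89 they were 12.3, 8.76 and 14.6 in parental, 6.17, 4.70 and 6.08 in Holoclone, and 4.43, 7.68 and 5.91 in Paraclone cells. So 3 groups, the parental cells of both lines and Panc1 Holoclone cells, formed a higher level of 8.76 TPM or more, and the remaining groups a lower level of 7.68 TPM or less. BCL2L11 fell in Panc1 Paraclone cells against parental Panc1 with a difference of −1.15 ± 0.19 on the log2 scale (± SE, adjusted p = 0.00033). In Panc89 it fell in both clones against parental cells, with a difference of −0.94 ± 0.19 in Holoclone (adjusted p = 0.00164) and −0.88 ± 0.19 in Paraclone cells (adjusted p = 0.0033), and the latter call was lost in a fit of these 2 groups alone (adjusted p = 0.0794). Panc1 Holoclone cells exceeded Paraclone cells by 0.81 ± 0.19 (adjusted p = 0.00288), whereas the same difference in Panc89 was −0.06 (adjusted p = 0.857), and the changes of the lines differed with a difference of −0.87 ± 0.26 (adjusted p = 0.0183). Without Panc89 Holoclone replicate 2 this last call was lost (−0.76, adjusted p = 0.052).

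PMAIP1 (chromosome 18, 59899996 to 59904305, plus strand) encodes NOXA, which binds MCL1 and BFL-1 and is a p53 target. Its TPM rose in Panc1 from 13.2, 7.24 and 13.7 in parental cells to 24.8, 32.3 and 32.2 in Paraclone cells (log2 fold change 1.35 ± 0.27, adjusted p = 0.00156). Panc1 Holoclone cells had 18.4, 26.7 and 17.5 TPM, above all parental libraries, but this difference of 0.84 had an adjusted p of 0.0571. In Panc89 the parental cells had 31.9, 22.8 and 36.1 TPM, Holoclone cells 46.8, 66.2 and 85.8, and Paraclone cells 35.3, 55.4 and 41.5. PMAIP1 rose in Panc89 Holoclone cells against the parental cells by 1.09 ± 0.27 (adjusted p = 0.00751), and the Paraclone libraries overlapped with both other groups. Panc89 was above Panc1 in parental cells by 1.36 ± 0.27 (adjusted p = 0.000342) and in Holoclone cells by 1.60 ± 0.27 (adjusted p = 7.37e-05). The Holoclone against Paraclone change differed between the lines by 1.07 ± 0.38 (adjusted p = 0.0393), though within a line it passed the threshold neither in Panc1 (−0.51, adjusted p = 0.157) nor in Panc89 (0.56, adjusted p = 0.12). Of the 12 libraries in this comparison of changes, leaving out 8 of them, 1 at a time, ended the call, with adjusted p between 0.0729 and 0.101.

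BBC3 (chromosome 19, 47220822 to 47232766, minus strand), encoding the p53 target PUMA, ranged from 10.4 to 28.3 TPM in Panc1 and from 10.4 to 41.1 TPM in Panc89 libraries, and its adjusted p in the 10 comparisons was 0.0568 or more. The value nearest the threshold was the log2 difference of 0.84 between Panc89 Holoclone and Paraclone cells, which passed it without Panc89 Holoclone replicate 1 (1.13) or Paraclone replicate 3 (1.04). The PMAIP1 to BBC3 ratio was 0.501, 0.498 and 0.484 in parental Panc1, 0.852, 1.35 and 0.847 in Panc1 Holoclone, and 2.38, 2.15 and 2.02 in Panc1 Paraclone cells. In Panc89 the ratio was 0.901, 0.998 and 0.899 in parental, 2.18, 1.61 and 2.21 in Holoclone, and 1.58, 5.33 and 1.75 in Paraclone cells. Hence, in both lines every clone library had relatively more PMAIP1 than the parental libraries, with no overlap. This description, too, was chosen after the values were seen. PMAIP1 made up 23.0% ± 3.2 (SD, n = 3) of the summed TPM of the 3 BH3-only genes in parental Panc1, 39.4% ± 6.6 in Panc1 Holoclone cells and 60.4% ± 1.1 in Panc1 Paraclone cells. In Panc89 its share was 40.6% ± 1.2 in parental, 62.5% ± 3.3 in Holoclone and 63.5% ± 10.3 in Paraclone cells.

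Of the 8 other effectors and BH3-only genes (BOK, BID, BAD, BIK, HRK, BMF, BNIP3 and BNIP3L), 3 were higher and 1 was lower in parental Panc89 than in parental Panc1 cells. Among all genes 66.0% were called there. BIK, a BH3-only protein of the endoplasmic reticulum, averaged 57.4 TPM in parental Panc89 and 0.125 TPM in parental Panc1 cells (log2 fold change 5.70). Its parental Panc1 mean was below the 1 TPM of the filter, which BIK passed through other groups. This difference is therefore a description with no test, although BIK is counted among the 3 higher genes. HRK was higher by 3.09 (adjusted p = 7.03e-07). BID, which is cut by caspase 8 and links death receptors to BAX and BAK1, changed in opposite directions in the lines. Its group means were 39.5 TPM in Holoclone and 93.6 TPM in Paraclone cells of Panc1 (−1.22, adjusted p = 1.27e-05), and 92.4 TPM in Holoclone and 56.2 TPM in Paraclone cells of Panc89 (0.71, adjusted p = 0.00151). The difference of these changes was 1.93 (adjusted p = 4.49e-06), and BID stayed past the threshold in all 3 of these comparisons with either scaling. Between Holoclone and Paraclone cells, 2 of the 8 genes were higher and 1 lower in Panc1, though after either scaling none was higher and 2 were lower. In Panc89, 2 were higher and 3 lower, with BOK at −1.37 (adjusted p = 2.44e-05) and BMF at −0.88 (adjusted p = 0.00321). Among all genes 37.3% were called in this comparison in Panc1 and 35.7% in Panc89.

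BIRC3 (chromosome 11, 102317484 to 102339403, plus strand) was lower in Panc89 in every form of the cells. Its TPM were 92.8, 76.3 and 89.7 in parental Panc1, 88.9, 78.4 and 75.9 in Panc1 Holoclone, and 171, 89.1 and 63.7 in Panc1 Paraclone cells. In Panc89 they were 46.7, 22.1 and 44.4 in parental, 25.0, 20.0 and 15.1 in Holoclone, and 38.0, 40.7 and 39.3 in Paraclone cells. All Panc89 libraries lay below all Panc1 libraries, and within Panc89 the Holoclone libraries lay below the Paraclone libraries. The log2 fold changes of Panc89 against Panc1 were −1.24 ± 0.31 (SE, adjusted p = 0.00213) in parental, −1.99 ± 0.31 (adjusted p = 3.17e-05) in Holoclone and −1.31 ± 0.31 (adjusted p = 0.00156) in Paraclone cells. Panc89 Holoclone cells were below Panc89 Paraclone cells with a difference of −0.97 ± 0.31 (adjusted p = 0.0217), a call lost without Panc89 Holoclone replicate 2 (adjusted p = 0.0508) or 3 (adjusted p = 0.0931) or Paraclone replicate 3 (adjusted p = 0.0548). Panc1 Paraclone replicate 1 held the highest values of both BIRC3 and BCL2A1. Without it the log2 difference of BIRC3 between these Panc1 clones moved from −0.29 to 0.10, and neither value passed the threshold.

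The 250 bases before the annotated starts of BIRC3 and BCL2A1 are shown because both genes are known NF-kB targets. Sequences come from the RefSeq promoter windows on GRCh38.p14, where 9 of the 10 genes were found, and capitals mark matches to the NF-kB consensus. The BIRC3 window is chr11:102317234-102317483 on the plus strand, and the BCL2A1 window is chr15:79971197-79971446 on the minus strand.
BIRC3: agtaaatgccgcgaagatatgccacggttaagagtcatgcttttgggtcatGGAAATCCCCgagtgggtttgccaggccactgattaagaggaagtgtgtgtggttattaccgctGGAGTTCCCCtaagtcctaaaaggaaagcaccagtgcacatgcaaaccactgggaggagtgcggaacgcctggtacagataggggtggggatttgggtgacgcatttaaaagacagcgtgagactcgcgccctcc
BCL2A1: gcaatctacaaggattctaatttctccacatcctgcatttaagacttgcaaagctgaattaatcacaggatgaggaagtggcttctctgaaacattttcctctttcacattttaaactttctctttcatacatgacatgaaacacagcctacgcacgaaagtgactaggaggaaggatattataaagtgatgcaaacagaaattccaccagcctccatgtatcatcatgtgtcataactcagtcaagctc
BIRC3 held 2 matches, starting 199 and 135 bases before the start, and it was the only gene of the 9 with a match. Both strands were searched in windows reaching 50 bases past the start, and 11.3% of the 35116 promoters of this length held a match. The p53 consensus decamer was found in BAK1 alone, 73 bases before its start, and in 6.63% of all promoters. The BCL2A1 window held 2 CpG dinucleotides and the BIRC3 window 11, which is also the median of all promoters, whereas PMAIP1 held 36 and BCL2L11 held 34. A match describes letters in this window and says nothing of binding in these cells.

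BIRC2, encoding cIAP1, lies next to BIRC3 on chromosome 11 and has a related function. It was lower in Panc89 than in Panc1 with a difference of −1.19 in parental (adjusted p = 6.08e-06), −1.38 in Holoclone and −0.80 in Paraclone cells, all past the threshold. XIAP, which inhibits caspases directly, was lower with a difference of −1.73 in the parental comparison (adjusted p = 3.64e-08). In all, 3 of the 5 tested inhibitor of apoptosis genes outside the 10 were lower and none was higher in parental Panc89 than in parental Panc1 cells, with a median of −0.70 beside −0.18 for all genes, and median-of-ratios scaling left 2 lower. Among all genes 38.5% were lower and 27.5% higher there. For Panc1 Holoclone against Paraclone cells 4 of the 5 were higher in Holoclone cells, beside 27.4% of all genes. The 4 were BIRC6 (0.76), NAIP (0.75), XIAP (0.62) and BIRC2 (0.47), which either scaling reduced to 2. XIAP was lost at 0.37 (adjusted p = 0.0961) with upper quartile and 0.34 (adjusted p = 0.150) with median-of-ratios scaling. BIRC2 was lost at 0.22 (adjusted p = 0.270) and 0.19 (adjusted p = 0.364). Reads of NAIP can be shared with its copies nearby, so its value is uncertain. In Panc89, 1 of the 5 was lower in Holoclone cells, NAIP with −0.45 (adjusted p = 0.0417), beside 13.3% of all genes.

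Between the parental cells 4 of the 9 were called, PMAIP1 higher and BCL2L1, BCL2A1 and BIRC3 lower in Panc89, where 66.0% of all tested genes were called, 27.5% higher and 38.5% lower. Both scalings added MCL1 and BAK1, with 3 higher and 3 lower. Between the Holoclone cells 6 of the 9 were called, MCL1, BAK1 and PMAIP1 higher and BCL2A1, BCL2L11 (−0.85, adjusted p = 0.000863) and BIRC3 lower in Panc89, beside 65.8% of all genes, 29.3% higher and 36.4% lower. Between the Paraclone cells 3 were called, MCL1 higher and BCL2A1 and BIRC3 lower, beside 60.7% of all genes, 30.2% higher and 30.4% lower. These shares of the 9 genes, among them BCL2A1, which had to differ, were thus near or below those of all genes.

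**Figure D3:**
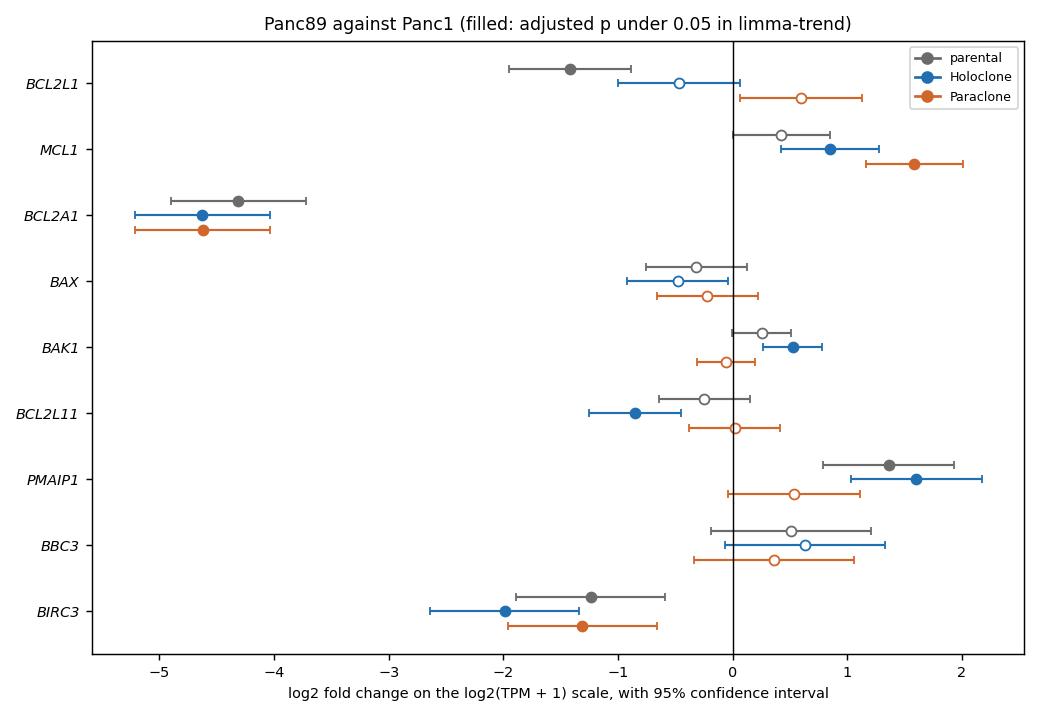
Log2 fold changes of Panc89 against Panc1 (horizontal axis, log2(TPM + 1) scale) for the 9 tested genes (vertical axis) in parental, Holoclone and Paraclone cells, with 95% confidence intervals; filled points passed an adjusted p of 0.05. BCL2A1 lies between −4.63 and −4.31 in all 3 forms, and BCL2L1 moves from −1.42 in parental to 0.59 in Paraclone cells.

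Between Holoclone and Paraclone cells, the comparison that asks how the clone types of a line differ, 2 of the 9 genes were called in Panc1 (BCL2L1 and BCL2L11, both higher in Holoclone cells), beside 37.3% of all tested genes, 27.4% higher and 9.97% lower. After either scaling BCL2L11 stayed higher and BAK1 was called lower (−0.39 and −0.41), and median-of-ratios scaling also called PMAIP1 lower (−0.78, adjusted p = 0.0471). In Panc89, 3 were called (BAK1 higher, MCL1 and BIRC3 lower in Holoclone cells), beside 35.7% of all genes, 22.4% higher and 13.3% lower. With upper quartile scaling BAK1 was called in both lines, lower in Panc1 (−0.39) and higher in Panc89 (0.35, adjusted p = 0.0254). The changes themselves differed between the lines for 4 of the 9 genes, BCL2L1 (−1.06, adjusted p = 0.029), BCL2L11, BAK1 and PMAIP1, beside 35.1% of all genes, 14.8% with a positive and 20.4% with a negative difference. MCL1, with a difference of −0.73, had an adjusted p of 0.0549. After either scaling the BCL2L1 difference no longer passed the threshold (−0.90, adjusted p = 0.0852, and −0.92, adjusted p = 0.0916), and without Panc89 Paraclone replicate 1 it was −0.73 (adjusted p = 0.0637).

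**Figure D4:**
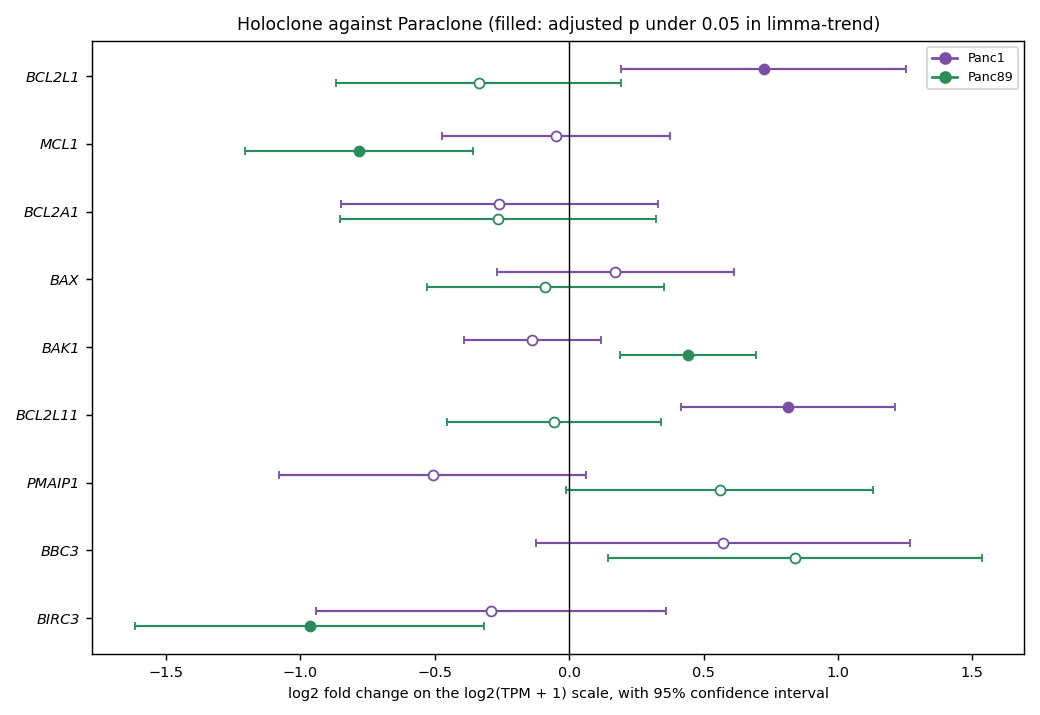
Log2 fold changes of Holoclone against Paraclone cells (horizontal axis, log2(TPM + 1) scale) for the 9 tested genes (vertical axis) in Panc1 and Panc89, with 95% confidence intervals; filled points passed an adjusted p of 0.05. BCL2L1 and BCL2L11 are called in Panc1 (0.72 and 0.81), and MCL1, BAK1 and BIRC3 in Panc89 (−0.78, 0.44 and −0.97).

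Against the parental cells of their line, whose libraries both clone comparisons share, Panc1 Holoclone cells had 0 of the 9 genes called with limma-trend, beside 10.9% of all genes (5.87% higher and 5.06% lower), and 1 gene, PMAIP1, had an unadjusted p under 0.05. The interval of BCL2L1 in this comparison was −0.57 to 0.49, and that of MCL1 −0.48 to 0.37. In Panc1 Paraclone cells 3 were called, PMAIP1 higher and BCL2L1 and BCL2L11 lower, beside 28.6% of all genes, 7.31% higher and 21.3% lower. In Panc89, 3 were called in Holoclone cells (BCL2L1 and PMAIP1 higher, BCL2L11 lower), beside 24.7% of all genes, 16.1% higher and 8.61% lower. Another 3 were called in Paraclone cells (BCL2L1 and MCL1 higher, BCL2L11 lower), beside 19.4% of all genes, 9.37% higher and the remainder lower. BCL2L11 thus was lower than in the parental cells in 3 of the 4 clones, and in the fourth, Panc1 Holoclone, it had a value of −0.33 (adjusted p = 0.313).

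Downstream of the mitochondria, 2 of the 11 genes of the apoptosome, the caspases and the antagonists of inhibitor of apoptosis proteins were higher and 3 lower in parental Panc89 than in parental Panc1 cells, and after either scaling 3 were higher and 2 lower. The largest changes were in the initiator caspase CASP10 (2.47, adjusted p = 7.28e-10) and in APAF1, the scaffold of the apoptosome (−1.29, adjusted p = 0.00214). Among all genes 66.0% were called there. Between Holoclone and Paraclone cells 4 of the 11 were higher and none lower in Panc1, among them cytochrome c, CYCS (0.87). These counts became 2 higher and 1 lower with upper quartile and 2 and 2 with median-of-ratios scaling. In Panc89, 3 were higher and 3 lower, with the initiator CASP9 at −1.40 (adjusted p = 2.25e-05) and CASP6 at −0.84 (adjusted p = 0.0344). Among all genes 27.4% were higher and 9.97% lower in this comparison in Panc1, and 22.4% and 13.3% in Panc89.

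Of 10 death receptors, ligands and adaptors of the receptor-driven route, 5 were higher and 2 lower in parental Panc89 than in parental Panc1 cells, beside the 66.0% of all genes called there, or 7 and 0 after either scaling. TNFSF10, the death ligand TRAIL, averaged 240 TPM in parental Panc89 and 0.995 TPM in parental Panc1 cells (log2 fold change 6.84). Its parental Panc1 mean was below the 1 TPM of the filter, which TNFSF10 passed through other groups. This difference is therefore a description with no test, although TNFSF10 is counted among the higher genes. The receptor FAS averaged 19.0 TPM in parental Panc89 and 2.87 TPM in parental Panc1 cells (2.38, adjusted p = 1.75e-06). TNFSF10 and FAS were lower in Panc1 Holoclone than in Panc1 Paraclone cells, with differences of −2.14 and −1.71. In that comparison 1 of the 10 genes was higher and 4 were lower, or 0 and 6 after either scaling. In Panc89 Holoclone cells 1 of the 10 was higher than in Paraclone cells (TNFSF10, 1.29) and 2 were lower, among them the adaptor kinase RIPK1 (−0.71). Among all genes 27.4% were higher and 9.97% lower in this comparison in Panc1, and 22.4% and 13.3% in Panc89. CFLAR, encoding the caspase 8 inhibitor c-FLIP, was higher in Holoclone than in Paraclone cells of Panc1 (0.71, adjusted p = 0.00286) and lower in those of Panc89 (−0.43, adjusted p = 0.0496). The difference of these changes was −1.14 (adjusted p = 0.00122), although the Panc1 value alone became 0.46 (adjusted p = 0.052) and 0.43 (adjusted p = 0.087) after the scalings.

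Of 5 listed genes that act on MCL1 and BIM protein stability, FBXW7, HUWE1, BTRC and USP9X were tested. Among these 4, 1 was higher and 2 were lower in parental Panc89 than in parental Panc1 cells (BTRC −1.13, HUWE1 −0.89), beside the 66.0% of all genes called there. None of the 4 was called between Holoclone and Paraclone cells of either line, beside 37.3% of all genes in Panc1 and 35.7% in Panc89. PMAIP1 and BBC3 are p53 targets, and of 18 other p53 target genes 4 were higher and 8 lower in parental Panc89 than in parental Panc1 cells. Among all genes 27.5% were higher and 38.5% lower there. In Panc89 Holoclone cells, where PMAIP1 rose against the parental cells, 8 of the 18 were higher and 1 was lower, with the stress gene GADD45A at 2.31 (adjusted p = 0.000607) and MDM2, the ubiquitin ligase of p53, at 1.13 (adjusted p = 2.81e-05). In that comparison BBC3 had a value of 0.03 (adjusted p = 0.983), and among all genes 16.1% were higher and 8.61% lower. Of all called genes there 65.2% were higher, which became 51.4% with upper quartile and 51.1% with median-of-ratios scaling. In Panc1 Paraclone cells, where PMAIP1 also rose, 1 of the 18 was higher (FAS, 2.01, adjusted p = 7.61e-05) and 5 were lower, among them PHLDA3 at −1.50 (adjusted p = 0.000421). BBC3 had a value of −0.67 (adjusted p = 0.145) in this comparison with parental Panc1 cells. Among all genes 7.31% were higher and 21.3% lower there. Between Holoclone and Paraclone cells 6 of the 18 were higher and 2 lower in Panc1 and the same numbers in Panc89. With upper quartile scaling the Panc1 counts became 2 and 2. Unscaled, 27.4% of all genes were higher and 9.97% lower in Panc1, and 22.4% and 13.3% in Panc89. FAS and TNFRSF10B stand in both the p53 and the death receptor list.

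BIRC3 and BCL2A1 are NF-kB targets. Of 16 other NF-kB target genes, 8 were higher and 4 lower in parental Panc89 than in parental Panc1 cells. The counts were 5 higher and 6 lower between the Holoclone cells and 4 higher and 6 lower between the Paraclone cells of the lines. Of all genes, 66.0% were called between the parental, 65.8% between the Holoclone and 60.7% between the Paraclone cells. Between the parental cells the chemokines CCL20 and CCL2 went in opposite directions, with log2 fold changes of 6.12 (adjusted p = 5.25e-12) and −4.70 (adjusted p = 4.39e-11). In Panc1 Paraclone cells 7 of the 16 were higher and none lower than in parental cells, with CCL2 at 4.68 (adjusted p = 6.39e-10) and CXCL1 at 2.92 (adjusted p = 0.000512). Among all genes 7.31% were higher and 21.3% lower there. In the same comparison BCL2A1 had a value of 0.56 (adjusted p = 0.151) and BIRC3 0.20 (adjusted p = 0.691). Between Holoclone and Paraclone cells 2 of the 16 were higher and 6 lower in Panc1, and 1 was higher and 4 were lower in Panc89, with IL6 at −3.88 and RELB at −1.98. Among all genes 27.4% were higher and 9.97% lower in Panc1, and 22.4% and 13.3% in Panc89. BIRC2 is also counted in this list.

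The genes whose levels followed each member most closely were sought over the 18 libraries, after each line's mean was subtracted, by Pearson's r and as a description, since libraries of a group share their cells. BCL2L1 was followed most closely by PROSER2 (r = 0.95), PMAIP1 by ADAM17 (r = 0.94) and BCL2L11 by ZNF707 (r = 0.91). PIP4K2A was among the 3 genes closest to MCL1 (r = 0.92). For BBC3 the closest gene was JMY (r = 0.92), for BAX IMP3 (r = 0.90), for BAK1 PSMA1 (r = 0.87), for BIRC3 CMPK1 (r = 0.82) and for BCL2A1 KTN1 (r = 0.80). Among the members themselves the highest value was that of BCL2L1 with MCL1 (r = 0.75), followed by BCL2A1 with BIRC3 (r = 0.58), and the lowest that of BCL2L11 with PMAIP1 (r = −0.67). For BCL2L1 with MCL1, Panc89 Paraclone replicate 1 held the highest values of both (283 and 757 TPM), and r without it was not computed. For BCL2A1 with BIRC3, 1 library, Panc1 Paraclone replicate 1, held the highest values of both (56.7 and 171 TPM). BCL2A1 was also at 0.420 TPM or less in every Panc89 library, and r without that Panc1 library was not computed.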

How the data were processed

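RNA from 3 passages of each of 6 cell groups was sequenced by the authors from stranded mRNA libraries, quantified with kallisto 0.46.1 against Ensembl GRCh38 and summarized by tximport in the form of scaled TPM. The table was deposited by the authors as log2(TPM + 1) for each symbol in each library, and after undoing the logarithm the TPM summed to between 985339 and 988066 per library. They hold no counts, so depth, counting error and intervals for a value of 0 are unknown, and isoforms of a gene are summed. The authors' own tests on counts were not analysed here.

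Groups were compared with limma 3.58.1 in R 4.3.3 (lmFit, eBayes with trend), with 6 group means and a residual spread common to the 18 libraries. A gene was tested if 3 or more libraries reached 1 TPM, which kept 16093 genes. Two-sided p-values were adjusted over all tested genes by Benjamini-Hochberg, and an adjusted p under 0.05 is called. The fit was first tested on simulated data with known changes.

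The 10 genes, the gene lists and the tests were chosen with earlier results of these data known. All 10 genes are named. From each list the genes with the largest change among those called in a comparison are named, together with BIRC2, CFLAR, BCL2L2 and BID. XIAP between the Panc1 clones was named after its value was seen. Alternatives covered a pseudocount of 0.1, the filter, upper quartile and median-of-ratios scaling, a fold threshold, an untrended fit, replicate blocks, a fit of the compared groups alone and each library left out. List counts under the scalings were added after seeing the data. Gene positions are from GENCODE 44 on GRCh38. Replicate numbers were checked for pairing on deviations from group means: correlations within a line were −0.318 to 0.190 over 18 pairs, so no pairing was used. Some genes of the lists are counted but not reported here by name, and 1 leukocyte marker was left out of the summed level.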

Additional observations from a re-analysis of the deposited data

Results flagged for a closer look

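BAK1, BCL2L1, BCL2L11 and PMAIP1 had Holoclone against Paraclone changes that differed between Panc89 and Panc1 in the interaction term of limma-trend, the only reason for listing them here. The difference was 0.58 for BAK1 (adjusted p = 0.0144), −1.06 for BCL2L1 (adjusted p = 0.029), −0.87 for BCL2L11 (adjusted p = 0.0183) and 1.07 for PMAIP1 (adjusted p = 0.0393). BAK1 changed by −0.14 in Panc1 and 0.44 in Panc89, BCL2L1 by 0.72 and −0.34, BCL2L11 by 0.81 and −0.06, and PMAIP1 by −0.51 and 0.56. Groups of 3 libraries were too small for a search for single outlying libraries. Each Holoclone and Paraclone group is 1 clone, so these differences cannot be told apart from differences between individual clones.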

How the results depend on the processing

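Of the calls named for the 9 tested genes, none reversed under any alternative run. In the counts of genes called, a fit without the filter left 1 of 2 between Panc1 Holoclone and Paraclone cells and 2 of 4 for the difference of the changes between the lines. That fit called 21% and 20.2% of all genes in these comparisons. An added fold threshold of 1 on the log2 scale left 3 of 6 between the Holoclone cells, 0 between Holoclone and Paraclone cells of Panc1 and 0 of Panc89 (2 and 4 genes had an unadjusted p under 0.05 in limma-trend), 1 between Panc89 Holoclone and parental cells, and 2 for the difference of the changes. The share of all genes called also fell with this threshold. It was 37.3%, 11.6%, 13.2%, 8.51% and 20.5% in these comparisons, in this order. A fit of Panc89 Paraclone and parental cells alone left 1 of 3, beside 13.9% of all genes. With a replicate block inside each line, 1 gene was called between the Panc1 clones and 2 for the difference of the changes, since BCL2L1 (adjusted p = 0.0612 and 0.0566) and PMAIP1 (adjusted p = 0.0654) were lost. That block called 34.5% and 31.7% of all genes in these comparisons. The block over both lines gave counts within 1.5 times the unblocked ones.

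When libraries were left out 1 at a time, the count was 1 in every case for Holoclone against Paraclone cells of Panc1 and 2 to 5 for those of Panc89, where leaving out Holoclone replicate 1 gave 5 with BBC3 and PMAIP1 added. It was 2 to 5 for the difference of the changes, with 2 without Panc1 Holoclone replicate 3, Panc89 Holoclone replicate 2 or Panc89 Paraclone replicate 1. It was 4 in every case between parental cells, 6 to 8 between Holoclone and 3 to 4 between Paraclone cells of the lines. Against parental cells it was 0 in every case for Panc1 Holoclone, 2 to 4 for Panc1 Paraclone, 2 to 4 for Panc89 Holoclone and 3 in every case for Panc89 Paraclone cells.

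Values that changed sign were below the threshold as reported. After upper quartile and median-of-ratios scaling, BAX became −0.084 and −0.11 for Panc1 Holoclone against Paraclone and 0.11 and 0.17 for Panc1 Paraclone against parental cells. MCL1 became 0.18 and 0.24 in the latter comparison, BBC3 −0.078 and −0.072 for Panc89 Holoclone against parental cells, and the difference of the changes of BCL2A1 0.22 and 0.23. With single libraries left out, the ranges for Panc1 Holoclone against parental cells were −0.080 to 0.10 for BAK1, −0.39 to 0.071 for BBC3, −0.29 to 0.11 for BCL2L1, −0.25 to 0.045 for MCL1 and −0.039 to 0.31 for BAX. For Panc1 Paraclone against parental cells they were −0.20 to 0.13 for MCL1, −0.19 to 0.020 for BAX and −0.19 to 0.52 for BIRC3. For Panc1 Holoclone against Paraclone cells they were −0.61 to 0.17 for BCL2A1, −0.60 to 0.10 for BIRC3 and −0.18 to 0.071 for MCL1. Between the Paraclone cells of the lines they were −0.17 to 0.0068 for BAK1 and −0.15 to 0.19 for BCL2L11. For Panc89 Paraclone against parental cells they were −0.13 to 0.10 for BAX and −0.21 to 0.32 for BIRC3. For Panc89 Holoclone against parental cells they were −0.21 to 0.31 for BBC3, −0.077 to 0.037 for BCL2A1 and −0.30 to 0.078 for BAX. For Panc89 Holoclone against Paraclone cells they were −0.23 to 0.11 for BCL2L11 and −0.32 to 0.060 for BAX. The difference of the changes ranged from −0.43 to 0.35 for BCL2A1 and from −0.090 to 0.56 for BBC3. The cause of these changes was not tested. Depth is unknown, so low values such as those of BCL2 and of BCL2A1 in Panc89 carry no counting error.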
